A study of Mus musculus with 6 samples.

Results

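Open chromatin was described at 42 genes, the 41 genes of a list of the nuclear receptor superfamily and Ncoa1, out of 21631 protein-coding genes of the mouse. The genes were taken by name. A peak was given to a gene when the protein-coding gene span nearest to its summit, the position of highest pileup, was that gene's and lay within 100 kb. The cells were bone marrow mesenchymal stem and progenitor cells (MSPCs) of mice with the genotype Lepr-Cre;LSL-tdTomato+/-, sorted for tdTomato, which marks cells in which the leptin receptor promoter has driven Cre at some time, and not only cells that express the receptor when sorted. Both groups carried both alleles and were female. Mice of 8 to 10 weeks received 4 intravenous injections, 1 week apart, of either doxorubicin (DOX) at 5 mg/kg, an anthracycline that traps topoisomerase II on DNA, or phosphate-buffered saline (PBS), and marrow was taken 8 weeks after treatment. Each group had 3 libraries of bulk ATAC-seq, an assay that finds open DNA by where the Tn5 transposase can insert adapters. The sources used here do not state whether a library stands for 1 mouse or several, and p-values here reflect how much these libraries vary.

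Nuclear receptors are transcription factors that bind DNA through a zinc finger domain and, in most members, change their partners when a small lipophilic ligand enters the other main domain. Retinoid, thyroid hormone, vitamin D, fatty acid and oxysterol receptors pair with a retinoid X receptor on repeats of a short half-site, steroid receptors bind palindromes as homodimers, and several orphan receptors bind a single half-site. Ligand-bound receptors recruit p160 coactivators, of which Ncoa1 (steroid receptor coactivator 1) is one. In marrow stroma, vitamin D, glucocorticoids, retinoids and thyroid hormone act on the choice between bone and fat fates and on the factors given to blood cells, and the clock receptors take part in the daily rhythm of the niche.

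The files are lists of peaks, 1 per library, in mm10 coordinates. The mean pileup over the genome, solved from each list, came to 1.27, 1.10 and 0.558 fragments in PBS replicates 1, 2 and 3 and 1.72, 1.67 and 2.22 in DOX replicates 1, 2 and 3, and is called the background below. It was higher in every DOX library, and it follows sequencing depth only where fragment lengths are alike, which the lists do not show. The lists held 65462 to 89264 peaks after PBS and 91026 to 100642 after DOX. Lists were therefore cut down to their 65462 strongest peaks, as many as PBS replicate 3 has in all, and all values below are from these trimmed lists unless they are called deposited. The weakest kept peak was 12.6, 12.8 and 8.97 times the background in PBS and 11.6, 12.6 and 12.6 times in DOX. A gene without a peak lay below that level and was not shown to be closed, and in bulk cells, fewer cells with a site open and less opening per cell cannot be told apart. Of 12 MSPC marker genes, Lepr and Cxcl12 among them, 11 had a peak within 1 kb of a gene end in every library. Of 8 markers each, 3 of B cells, 2 to 3 of myeloid cells, 3 to 4 of erythroid and megakaryocyte cells, 2 of endothelial cells and 2 of T and NK cells had one, with the same ranges in both groups but for 1 gene in single libraries. Pax5, Mpo, Alas2, Cdh5 and Cd3e had none in any library.

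Promoter sequences show what kinds of start these genes have, and a few are printed here, since open starts of members held more CpGs than starts without a peak and 1 of them holds a known receptor site. Sequences are the 250 bases before a transcription start in RefSeq (GRCm38.p6, the assembly that mm10 displays), 5′ to 3′ on the strand of the gene. Rarb encodes retinoic acid receptor beta, a receptor whose own gene answers to retinoic acid. Its listed start is at chr14:16575477-16575726 on the minus strand, and the capitals mark a direct repeat that retinoid receptor pairs bind, GGTTCA and AGTTCA with 5 bases between them, 53 bases before the start. The gene of the shared partner, Rxra, is given with an open start at chr2:27676951-27677200 and a start without a peak at chr2:27709042-27709291, both on the plus strand, with each CpG in capitals. Nr1d2, the clock repressor REV-ERB beta, is at chr14:18239107-18239356 on the minus strand, and Thrb, thyroid hormone receptor beta, at chr14:17660710-17660959 on the plus strand. In both, the capitals mark AGGTCA, the half-site shared by most of the family, 77 and 184 bases before the start. The Rxra start without a peak also holds 2 matches to AGGTCA or its reverse complement, which are not in capitals.
Rarb: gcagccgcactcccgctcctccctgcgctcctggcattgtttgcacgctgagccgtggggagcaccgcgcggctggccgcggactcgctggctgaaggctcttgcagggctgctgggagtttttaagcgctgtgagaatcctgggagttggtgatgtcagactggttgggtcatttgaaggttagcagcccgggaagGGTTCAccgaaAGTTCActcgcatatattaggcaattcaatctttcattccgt
Rxra, open start: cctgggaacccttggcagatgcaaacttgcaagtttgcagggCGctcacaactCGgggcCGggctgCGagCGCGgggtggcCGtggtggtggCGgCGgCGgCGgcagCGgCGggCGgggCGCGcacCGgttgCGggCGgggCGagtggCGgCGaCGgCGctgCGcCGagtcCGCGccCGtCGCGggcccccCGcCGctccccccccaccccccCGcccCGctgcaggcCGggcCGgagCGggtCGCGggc
Rxra, start without a peak: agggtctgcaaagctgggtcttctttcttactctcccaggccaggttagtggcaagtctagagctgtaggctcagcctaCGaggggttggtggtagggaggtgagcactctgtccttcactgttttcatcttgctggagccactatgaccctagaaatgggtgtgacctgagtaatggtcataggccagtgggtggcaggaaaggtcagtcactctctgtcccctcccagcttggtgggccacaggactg
Nr1d2: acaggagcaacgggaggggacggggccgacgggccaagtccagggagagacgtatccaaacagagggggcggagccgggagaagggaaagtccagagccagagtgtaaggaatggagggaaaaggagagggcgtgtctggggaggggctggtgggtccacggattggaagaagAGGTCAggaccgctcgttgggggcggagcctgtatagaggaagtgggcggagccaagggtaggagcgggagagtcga
Thrb: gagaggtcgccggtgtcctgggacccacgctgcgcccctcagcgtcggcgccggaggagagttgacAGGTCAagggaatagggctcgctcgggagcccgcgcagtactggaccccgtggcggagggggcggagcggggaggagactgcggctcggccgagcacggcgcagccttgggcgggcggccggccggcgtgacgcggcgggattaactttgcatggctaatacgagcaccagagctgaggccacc

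The strength of a peak is given as its percentile in the trimmed list of its library, where 100 is the strongest. Values are given for replicates 1, 2 and 3 in that order. Over the Rarb start the strongest peak lay at percentile 81.3, 80.6 and 77.6 in PBS and 82.8, 83.2 and 82.0 in DOX. Over the open Rxra start it lay at 75.5, 70.3 and 76.1 in PBS and 74.5, 73.4 and 77.5 in DOX. The Nr1d2 start was among the strongest peaks of the genome in every library, at 98.6, 99.1 and 99.4 in PBS and 98.9, 98.6 and 98.5 in DOX. The groups overlapped at Rxra and Nr1d2. At Rarb each DOX value was above each PBS value, as in 10.9% of all regions that every library held.

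The table of starts held 57 starts of 38 members, and Thra, Nr3c1, Nr5a1 and Hnf4g were not in it. A start counted as open where a peak overlapped the 300 bases from 250 before to 50 after it. Of the 57, 31 were open in all 6 libraries (54.4%, against 40.2% of 32619 starts of all genes), 25 in none (against 55.4%) and 1, the third start of Rara, in 5. At least 1 start was open in every library in 26 members. The 12 members with no open start were Esrrg, Hnf4a, Nr0b2, Nr1h4, Nr1i2, Nr1i3, Nr2e1, Nr2e3, Nr2f2, Nr5a2, Pgr and Rxrg, which include the bile acid and xenobiotic receptors of liver and gut, the photoreceptor and neural receptors Nr2e3 and Nr2e1, and the progesterone receptor. Of these, Nr2e3 and Nr2f2 still had a peak within 1 kb of a gene end in all 6 libraries. Open starts of members had a median of 20 CpGs in the 300 bases (6 to 55) and starts without a peak had 6 (1 to 22). Over all genes the medians were 22 and 3. The most CpG-rich starts were those of Rxra (55), Nr2f6 (53) and Ncoa1 (49), and all 3 were open in every library.

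Strength and CpG number did not go together at every start. Esr2, estrogen receptor beta, had 14 CpGs and a single peak at percentile 27.6, 43.1 and 40.8 in PBS and 39.9, 36.2 and 40.4 in DOX. Nr1d1, the clock repressor REV-ERB alpha, was strong with only 9 CpGs: its start lay at 94.5, 95.5 and 94.5 in PBS and at 96.8, 97.0 and 96.4 in DOX, with no overlap of the groups. Of all regions that every library held, 18.7% had no overlap of the groups (10.9% with DOX higher). The half-site was found at a like share of members' starts and of all starts: AGGTCA or its reverse complement was in 9 of 57 starts (15.8%, against 16.2% of all starts), of which 3 were open in all libraries and 6 in none. The direct repeat printed for Rarb, searched on both strands as GGTTCA, any 5 bases and AGTTCA, was in 1 of 57 starts and in 2 of 32619 overall (0.00613%). Neither TCAAGGTCA, the site of estrogen-related receptors, which contains the AGGTCA half-site (0.426% of all starts), nor AGAACA, any 3 bases and TGTTCT, the glucocorticoid palindrome (0.00920%), was in these windows of any member. GGGCGG, a GC box, was in 24 of 57 (42.1%, against 35.9%).

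**Figure D1:**
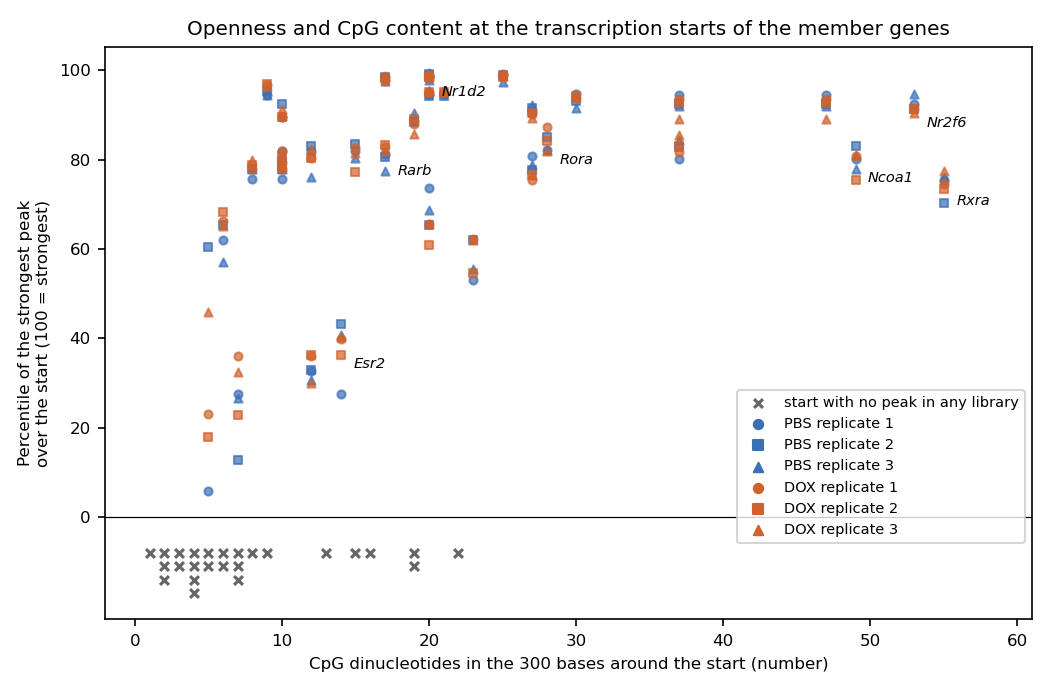
Each open start of a member gene is plotted by the number of CpG dinucleotides in its 300 bases (x axis) and the percentile of its strongest peak in each of the 6 libraries (y axis, blue PBS, orange DOX, shape by replicate), with starts that had no peak as crosses below 0. Crosses end at 22 CpGs, and the starts of Nr2f6, Ncoa1 and Rxra at the right are open in all 6 libraries.

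The number of peaks per gene ranged from 0 to 51. All members together held 279, 275 and 295 peaks after PBS and 268, 275 and 278 after DOX. From 67.5% to 72.7% of them lay inside the span of their gene, against 58.1% to 59.4% of all assigned peaks. Members owned longer stretches of genome than most genes, with a median of 96.2 kb nearest to the gene against 44.2 kb, and per 100 kb of that stretch the median was 3.47 peaks against 2.89 over all genes. A peak overlapped the 1 kb on either side of a gene end in all 6 libraries in 27 members and in none in 13, where 57% and 38.2% of all genes did. Hnf4a, with 4 libraries, and Nr1i2, with 1, were between. By library the number was 27, 29 and 27 after PBS and 28, 28 and 28 after DOX.

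**Figure D2:**
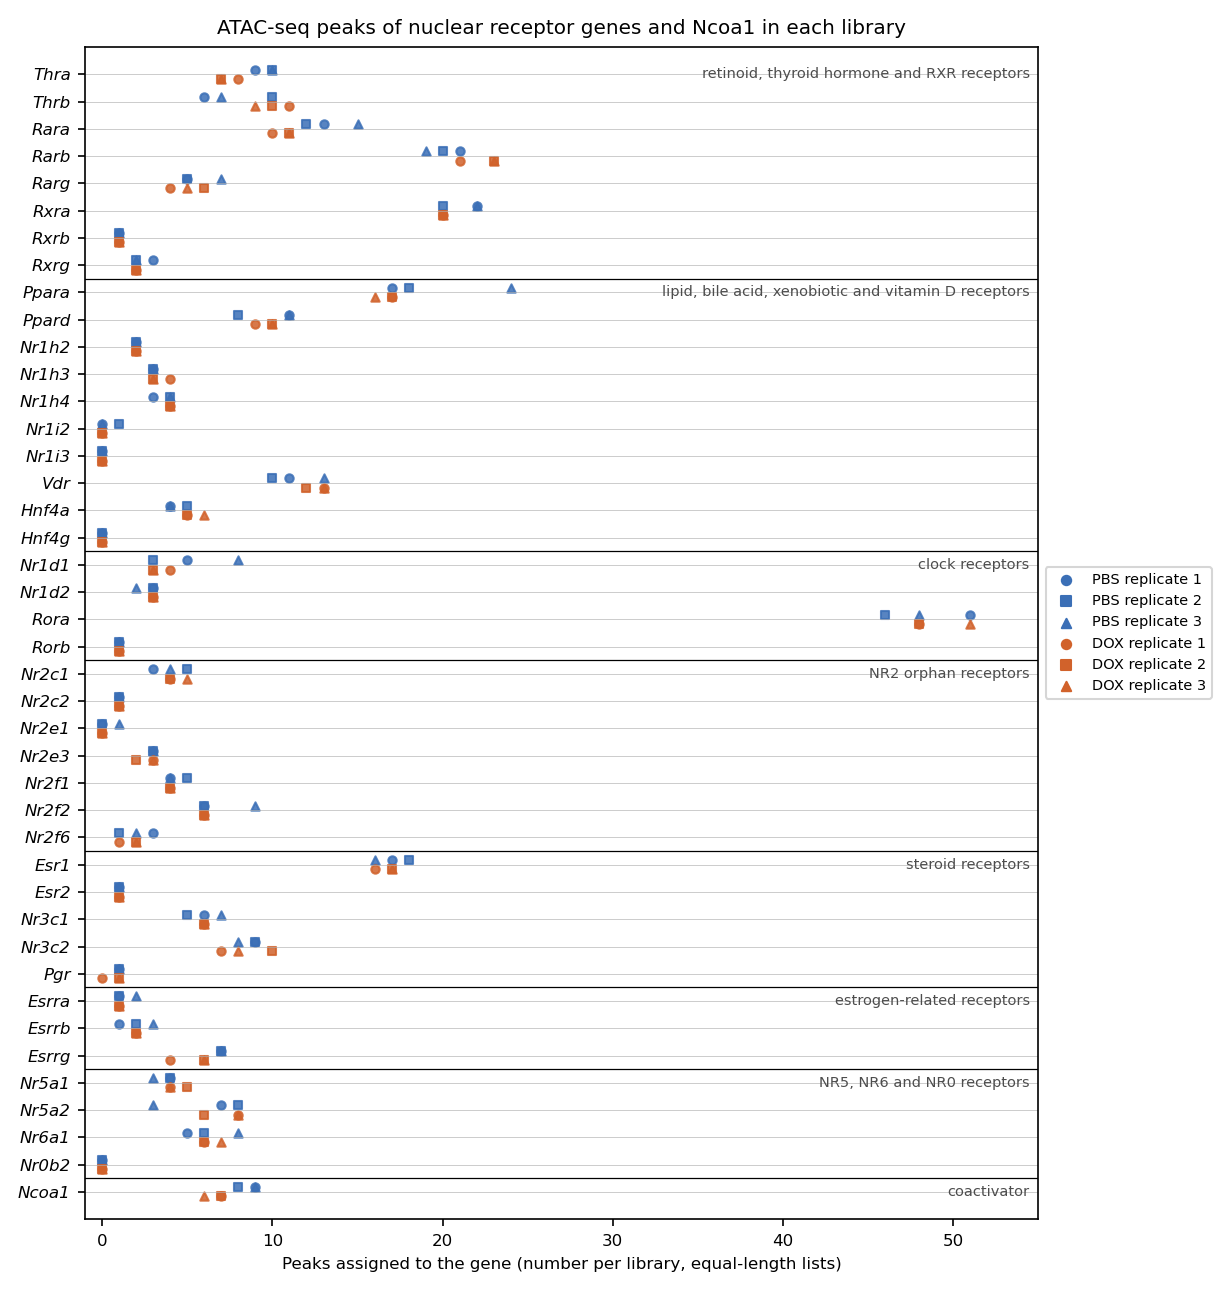
Peaks assigned to each of the 42 genes (x axis, number per library) are shown by gene in groups of related receptors, with PBS in blue, DOX in orange and the shape giving the replicate. Rora stands apart at 46 to 51 peaks, and the PBS and DOX points overlap at most genes.

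Across genes the number of peaks did not pass the test at any member. limma on log2(peaks + 0.5) was applied to 8783 genes whose mean was 2 peaks or more, which 30 members met, and called 0 of these 30 at an adjusted p (Benjamini-Hochberg) under 0.05, where 1.09% of all genes were called. The smallest adjusted p of a member was 0.375, and 4 of 30 had an unadjusted p under 0.05, against 5.57% of all genes. Of the 30, 14 had a higher fitted value in DOX, 15 a lower one and 1 was equal, and the median log2 difference was -0.01 against 0.00 over all genes. The groups did not overlap in 4 of 30 members (13.3%), Thra, Rara, Esrrg and Ncoa1, all with fewer peaks in DOX, against 5.06% of all genes (2.35% with fewer and 2.71% with more). Peaks that overlap between libraries were also merged into union regions, which do not count a broad site several times. By that count the groups did not overlap in 2 of the 30 members (6.67%), Esrrg and Ncoa1, against 4.78% of all genes. On simulated data of this design the test recovered 84 of 200 changes of 2-fold (42%) and also called 51 of 8583 unchanged genes. False calls were thus a large part of its calls. The changes were not put into genes with means close to the limit of 2 peaks. A gene with no spread within groups can pass on a small difference.

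Among the receptors for thyroid hormone and retinoids, Thra (thyroid hormone receptor alpha, chr11:98740776-98769006) held 9, 10 and 10 peaks after PBS and 8, 7 and 7 after DOX. The groups did not overlap, but they did as union regions, with 7, 8 and 6 after PBS and 7, 7 and 6 after DOX. The log2 difference in peaks was -0.38 ± 0.07 (SE, limma adjusted p = 0.375). Rara, retinoic acid receptor alpha, held 13, 12 and 15 after PBS and 10, 11 and 11 after DOX, with a log2 difference of -0.30 ± 0.10 (SE, limma adjusted p = 0.656). As union regions its groups overlapped too, at 12, 12 and 10 after PBS and 10, 11 and 11 after DOX. The first listed start of Rara lay under a peak at percentile 94.3 to 95.4, stronger than any peak given to Rara. That peak was thus counted for another gene. With each summit counted for every span that holds it, Rara had 16, 14 and 18 after PBS and 13, 14 and 13 after DOX. Those groups met at 14. A broad site can be listed as several peaks: at Thra the region over the left end (chr11:98740038-98743498) held 2 peaks in each PBS library and 1, 1 and 2 in DOX, and at Rara chr11:98941049-98945867 held 3 in PBS replicate 3 and 1 elsewhere.

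Thrb (chr14:17659225-18040097) went the other way in value, with 6, 10 and 7 peaks after PBS and 11, 10 and 9 after DOX, but the groups overlapped and its log2 difference of 0.39 ± 0.21 had a limma adjusted p of 0.751. Rarb held 21, 20 and 19 after PBS and 21, 23 and 23 after DOX, overlapping at a single value. Rarg, retinoic acid receptor gamma, held 5, 5 and 7 after PBS and 4, 6 and 5 after DOX, yet the same 4 union regions in every library. Of the partners, Rxra held 22, 20 and 22 in PBS and 20 in each DOX library, Rxrb 1 peak in each library and Rxrg 2 to 3, none of them at a gene end in the case of Rxrg. The peak given to Rxrb lay at percentile 26.7 to 47.4. Its listed starts lay under a stronger peak, at 89.1 to 94.6, that was counted for another gene. Of the settings that left out a library, Rxra passed in 1: without PBS replicate 2 its limma adjusted p was 0.000927, where both other PBS libraries have 22 peaks and every DOX library 20.

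The receptors of the thyroid hormone, retinoic acid and REV-ERB families lie side by side in a pair of duplicated clusters, and these were open in unlike ways. On chromosome 11, Thra, Nr1d1 and Rara lie within 234 kb (chr11:98740776-98974942), and the ends of Thra and Nr1d1 share 1075 bp at chr11:98767932-98769006. On chromosome 14, Rarb, Thrb and Nr1d2 spread over 1808 kb (chr14:16430839-18239106). The chromosome 11 genes held 25.9 peaks per 100 kb of the stretch nearest to them and the chromosome 14 genes 2.27. Nr1d1, Rara and Thra were, at 27.3, 25.8 and 25.4 peaks per 100 kb, highest by the mean over the 6 libraries, before Nr2f6 at 19.9 and Nr1h3 at 16.8. For Nr1d1 the order rests on PBS replicate 3, at 50.3, since PBS replicate 2 and DOX replicates 2 and 3 had 18.9. Counted as union regions, Rara and Thra had 23.6 and 20.4 per 100 kb, Nr2f6 16.3, Nr1h3 15.96 and Nr1d1 13.6. In PBS the chromosome 11 cluster held 27, 25 and 33 peaks and in DOX 22, 21 and 21, which do not overlap. As union regions it held 21, 22 and 19 after PBS and 19, 20 and 19 after DOX, which overlap. The chromosome 14 cluster held 30, 33 and 28 peaks after PBS and 35, 36 and 35 after DOX, with 29, 32 and 27 and 34, 35 and 35 as union regions. Its groups did not overlap on either count. These sums over 3 genes were looked at after the values of their members and have no test. How often like sums over other genes do not overlap was not counted.

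Rora, the retinoid-related orphan receptor alpha that drives clock genes which REV-ERB proteins repress, had more peaks than any other member. It held 51, 46 and 48 after PBS and 48, 48 and 51 after DOX, which made it number 11 among the 21631 genes by mean peaks and gave it 16.3% to 18.3% of the peaks of all members. The groups overlapped, with a log2 difference of 0.02 ± 0.05 (SE, limma adjusted p = 1.00). Rora spans 735 kb (chr9:68653404-69388246), and per 100 kb its 5.80 peaks placed it only 6778th. Its peaks fell into 59 union regions, 34 of them in all 6 libraries, 20 in 2 to 5 and 5 in 1. Of the 34, 21 lay in the last 350 kb of the gene and 11 in the first 350 kb after the listed start, a split chosen after the map was seen. The strongest of them was not over the listed start but deep inside the gene (chr9:69289216-69291153), 636057 bp from that start. It lay at percentile 89.1, 90.5 and 89.2 in PBS and 91.6, 90.4 and 92.2 in DOX. The table of starts held only 1 start of Rora, so whether that region is another start was not tested.

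**Figure D3:**
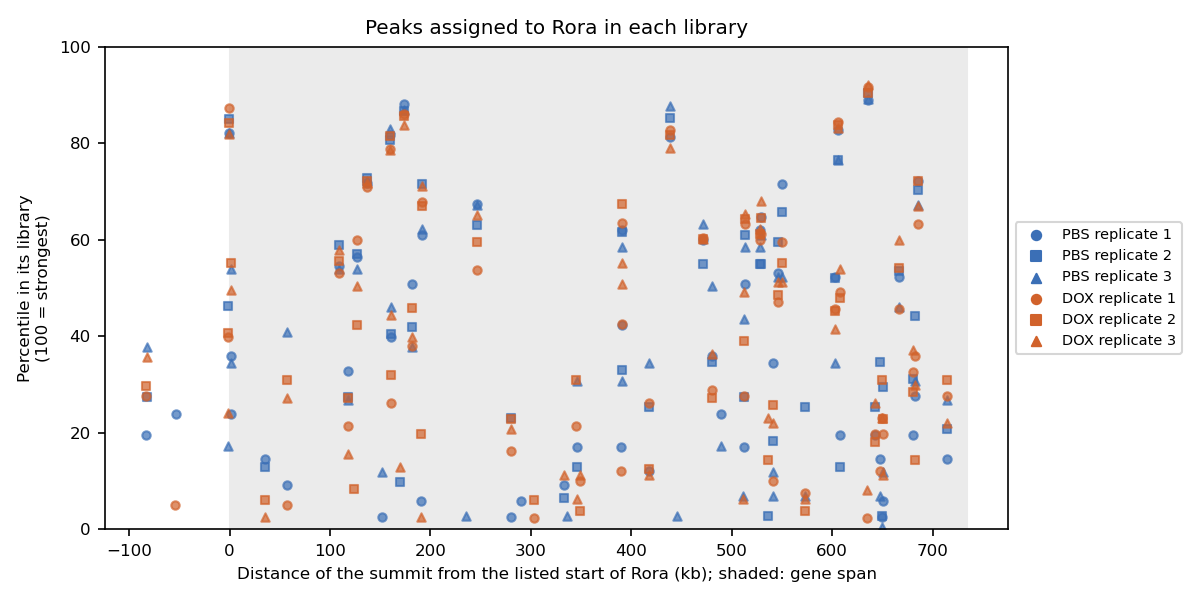
Every peak given to Rora is placed by the distance of its summit from the listed start (x axis, kb, gene span shaded) and its percentile in its library (y axis), with PBS in blue, DOX in orange and the shape giving the replicate. Columns of 6 points are regions that all libraries held, and they are more numerous in the last 350 kb, with the strongest near 636 kb.

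The other clock receptors had few peaks. Nr1d1 held 5, 3 and 8 after PBS and 4, 3 and 3 after DOX, the largest fitted difference of a member at -0.52 ± 0.38 (SE, limma adjusted p = 0.795), with overlapping groups. As union regions it held 2, 2 and 3 in PBS and 2 in each DOX library. PBS replicate 3, the library with the narrowest peaks (median 328 bp), held the 8 peaks. Nr1d2 held 3, 3 and 2 in PBS and 3 in each DOX library. Rorb, a receptor of neural tissue, had the same single peak at its start in each library.

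Among the receptors for lipids, bile acids and xenobiotics, several known for liver and gut had few peaks or none. Nr1i3 (the constitutive androstane receptor), Hnf4g and, from another branch, the small partner Nr0b2 had no peak in any library, also in the deposited lists. Nr1i2, the pregnane X receptor, had 1 peak, in PBS replicate 2. Nr1h4, the bile acid receptor FXR, held 3, 4 and 4 in PBS and 4 in each DOX library, none of them at a gene end. Hnf4a held 4, 5 and 4 after PBS and 5, 5 and 6 after DOX, none over its listed starts.

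Ppara, a receptor for fatty acids that turns on their oxidation, had the most peaks of this branch, with 17, 18 and 24 after PBS and 17, 17 and 16 after DOX. As union regions it held 16, 16 and 17 after PBS and 17, 17 and 16 after DOX. Ppard, its relative, held 11, 8 and 11 after PBS and 9, 10 and 10 after DOX. The oxysterol receptor LXR alpha, Nr1h3, held 3 in each library but DOX replicate 1, which held 4. LXR beta, Nr1h2, held 2 in every library. Vdr, the vitamin D receptor, held 11, 10 and 13 after PBS and 13, 12 and 13 after DOX, with a log2 difference of 0.16 ± 0.11 (SE, limma adjusted p = 0.795). In these 5 genes the groups overlapped or were equal.

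Steroid receptor genes held from 18 peaks to 0. Esr1, estrogen receptor alpha, held 17, 18 and 16 after PBS and 16, 17 and 17 after DOX, over 394 kb. Nr3c1, the glucocorticoid receptor, held 6, 5 and 7 in PBS and 6 in each DOX library and had no peak within 1 kb of either end of its span. Its strongest region, chr18:39488610-39491975, lay inside the gene, 29489 bp from the nearer end, at percentile 91.6, 93.8 and 91.1 in PBS and 93.0, 91.7 and 89.9 in DOX. The starts of Nr3c1 were not in the table, so whether that region is one of them was not tested. Nr3c2, the mineralocorticoid receptor, held 9, 9 and 8 after PBS and 7, 10 and 8 after DOX, with a start at 97.7 to 98.7 in every library. Esr2 had 1 peak in each library, and Pgr, the progesterone receptor, 1 in each but DOX replicate 1. In all 5 genes the groups overlapped or were equal.

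Of the estrogen-related orphan receptors, Esrra, a factor of mitochondrial genes, had one of the strongest starts of the list, at 98.9, 99.0 and 97.5 in PBS and 99.1, 98.5 and 98.7 in DOX, and 1 peak in every library but PBS replicate 3, which had 2. Esrrg, which acts on like genes in heart and other tissues rich in mitochondria, lay at the other extreme, with 606 kb, 4 listed starts and no peak at any of them. It held 7 peaks in each library after PBS and 4, 6 and 6 after DOX, and the groups did not overlap. The log2 difference was -0.38 ± 0.17 (SE, limma adjusted p = 0.656). Leaving out DOX replicate 1 made it -0.21 ± 0.01 with a limma adjusted p of 0.0051, since no group then had any spread. Counted in deposited lists of unequal length, it held 9, 9 and 7 after PBS and 9, 9 and 10 after DOX. Esrrb held 1, 2 and 3 in PBS and 2 in each DOX library.

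Among the NR2 orphan receptors, the COUP factors act in mesenchyme and, for Nr2f2, in veins. Nr2f1 held 4, 5 and 4 in PBS and 4 in each DOX library. Nr2f2 held 6, 6 and 9 in PBS and 6 in each DOX library. The listed start of Nr2f2 had no peak, but a region inside the gene 4912 bp from that start (chr7:70359805-70362312) lay at 90.6 to 92.0 in every library. Nr2f6 held 3, 1 and 2 after PBS and 1, 2 and 2 after DOX. Nr2c1 and Nr2c2, the testicular receptors, held 3 to 5 and 1, Nr2c2 with a start at 97.8 to 98.8. Nr2e3 held 3 in every library but DOX replicate 2, which held 2, and Nr2e1 1, in PBS replicate 3. The groups overlapped in all of these genes.

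The NR5 and NR6 receptors act in endocrine tissue and in early development. Nr5a1, the receptor of steroid-making tissues, held 4, 4 and 3 after PBS and 4, 5 and 4 after DOX, with no peak at a gene end. Nr5a2, its relative of liver and pancreas, held 7, 8 and 3 after PBS and 8, 6 and 8 after DOX, a log2 difference of 0.36 ± 0.41 (SE, limma adjusted p = 0.885) that was -0.039 without PBS replicate 3. Nr6a1, the germ cell nuclear factor, held 5, 6 and 8 after PBS and 6, 6 and 7 after DOX. In these 3 genes too the groups overlapped.

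Ncoa1, the coactivator, held 9, 8 and 9 peaks after PBS and 7, 7 and 6 after DOX (chr12:4247362-4477206). The groups did not overlap, and they did not as union regions either, with 9, 8 and 8 after PBS and 7, 7 and 6 after DOX. The log2 difference was -0.36 ± 0.08 (SE, limma adjusted p = 0.439). Its start was open in all libraries, at percentile 80.2, 83.0 and 78.0 in PBS and 80.8, 75.4 and 81.1 in DOX, and 6 of its 10 union regions were in all 6 libraries. In the lists trimmed at a -log10 q of 10 instead of by length the log2 difference was 0.46, while the median of all genes was 0.28.

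One region inside Ncoa1 was listed in every PBS library and in no DOX library (chr12:4417716-4417977, 262 bp). It was known from an earlier look at these data, so its values are a description. Whether it is in an exon or an intron was not analysed here. The pileup at its summit was 28, 30 and 38 fragments in PBS, or 22.0, 27.4 and 68.1 times the background of each library. The deposited DOX lists held a weaker peak there, of 17, 18 and 24 fragments, or 9.88, 10.8 and 10.8 times the background, below the weakest kept peak of those libraries. Every PBS value was above every DOX value on this scale. The region was picked as kept in PBS lists and not in DOX lists, and that choice largely sets this order. PBS replicate 3, the library of lowest background, was highest, and the other PBS values were 22.0 and 27.4. Regions of members that all libraries held had a median of 47.6, 50.2 and 42.1 times the background in PBS and 45.6, 49.3 and 52.6 in DOX.

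Regions of members listed in all libraries of 1 group and none of the other were few. Of 326 union regions given to members, 2 were in DOX only (0.613%, against 0.792% of all 78613 regions) and 1, that of Ncoa1, in PBS only (0.307%, against 0.303%). All regions here include those with no gene within 100 kb. The DOX region of Rora (chr9:69002492-69002957, inside the gene) had 24, 22 and 34 fragments in DOX, 13.95, 13.15 and 15.29 times the background. PBS replicates 1 and 2 had deposited peaks of 16 and 12 fragments there, 12.6 and 10.9 times, at or below the weakest kept peak, and PBS replicate 3 had none. The DOX region of Ppara (chr15:85682886-85683140), 51906 bp outside the gene, had 27, 24 and 35 fragments in DOX, 15.7, 14.3 and 15.7 times the background, and 11 and 13 in the deposited lists of PBS replicates 1 and 2, 8.66 and 11.9 times. Both DOX regions were weak, at percentile 3.65 to 16.2, whereas the Ncoa1 region reached 29.4, 37.8 and 71.6 in PBS. The DOX libraries had the higher background, and the part of that difference in the 2 weak regions was not tested.

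**Figure D4:**
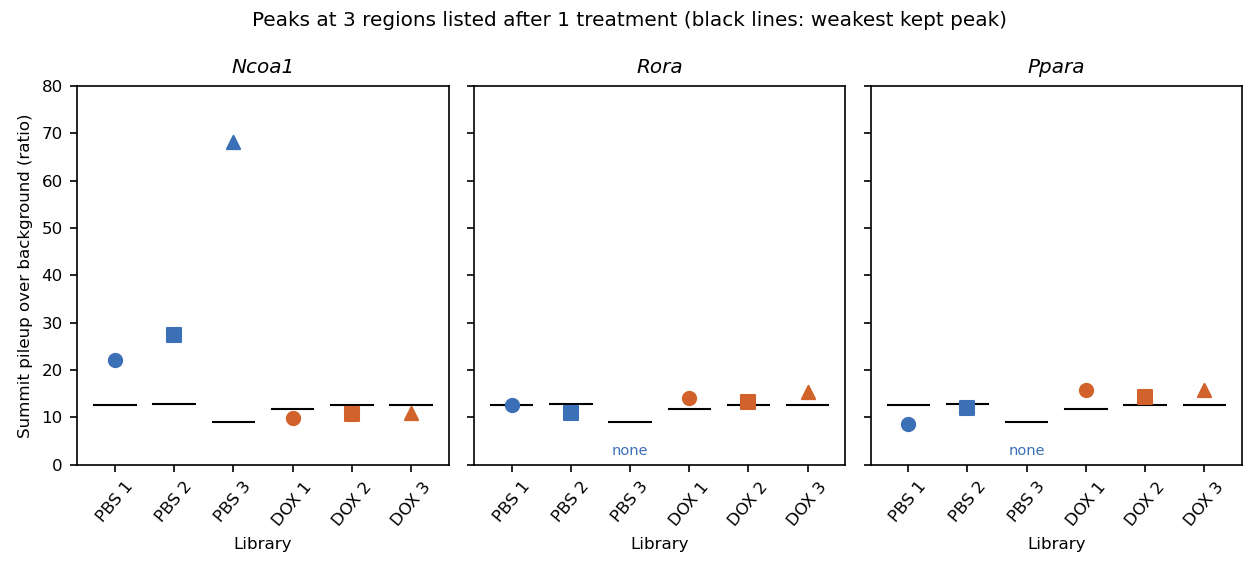
Summit pileup over the background of the library (y axis, ratio) is shown at the 3 regions for each of the 6 libraries (x axis), from the deposited lists, with a black line at the weakest peak kept in each trimmed list. At Ncoa1 the PBS points reach 22.0 to 68.1 and the DOX points stay near 10, whereas at Rora and Ppara the points lie within a few units of the line and PBS replicate 3 has none.

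The strength of regions that every library held was compared by percentile. Members held 208 such regions in 36 genes, 63.8% of their regions against 62.5% of all regions. limma called 0 of 208 at an adjusted p under 0.05, where 0% of 49098 regions were called. Of the 208, 20 (9.62%) had an unadjusted p under 0.05, 13 higher and 7 lower in DOX, against 13.4% of all regions (8.17% higher and 5.19% lower). Groups did not overlap in 34 (16.3%), 17 higher and 17 lower, against 18.7% (10.9% and 7.85%). The median difference was 0.19 points against 0.30 for all regions. In simulated data of this design, shifts were put into regions of middle percentile only. The test recovered 0% of shifts of 10 points, 7% of shifts of 20 and 43% of shifts of 30. In such regions differences of 10 points or fewer could thus not be called at this replication. Shifts in the strongest and weakest regions were not simulated.

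**Figure D5:**
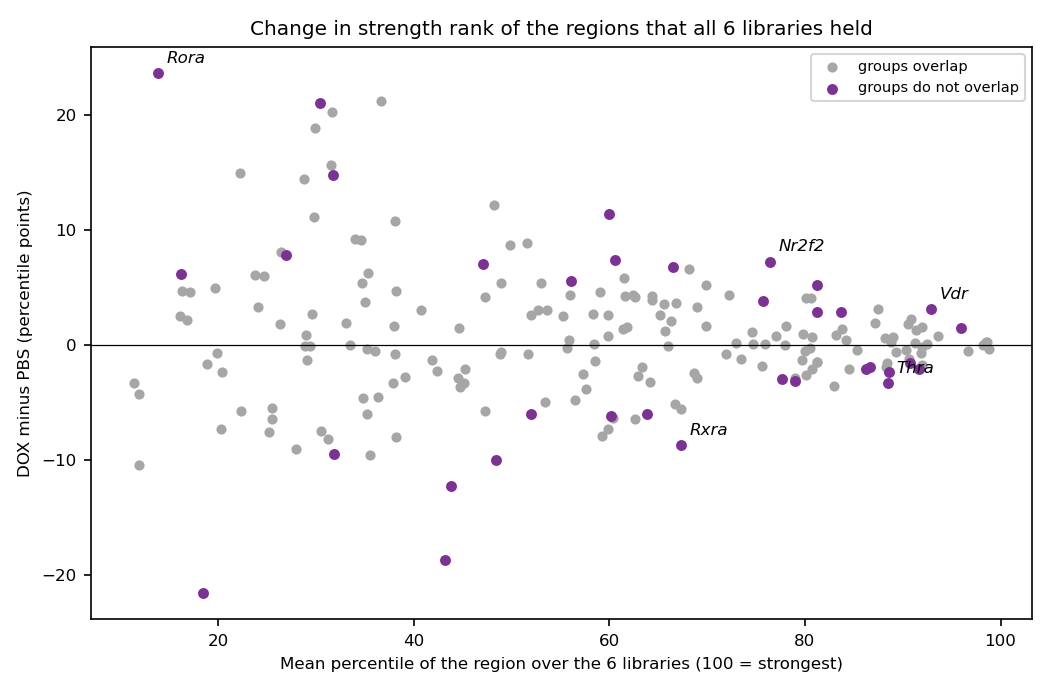
The difference in percentile between DOX and PBS (y axis, points) is plotted for the 208 regions against their mean percentile over the 6 libraries (x axis), in purple where the groups do not overlap. Differences narrow toward the strongest regions, and the 5 regions with the smallest p, which are named, lie on both sides of 0.

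The 5 regions of members with the smallest p are given as chosen after their values were seen. At Vdr a region inside the gene (chr15:97887314-97888163), 20629 bp from the listed start, lay at percentile 91.9, 92.0 and 90.1 in PBS and 93.7, 95.5 and 94.2 in DOX, a difference of 3.13 ± 0.76 points (SE, limma adjusted p = 0.143). The listed start of Vdr lay at 77.2 to 83.6. At Nr2f2 a region 904 bp outside the gene (chr7:70350579-70351658) lay at 70.7, 75.0 and 72.8 in PBS and 81.2, 77.4 and 81.7 in DOX, a difference of 7.26 ± 1.99 (SE, limma adjusted p = 0.177). At Rora a region 649386 bp from the start (chr9:69303037-69303294) was near the bottom of the PBS lists, at 2.58, 2.78 and 0.53, and lay at 23.1, 30.8 and 23.0 in DOX, a difference of 23.7 ± 6.91 (SE, limma adjusted p = 0.189). In these 3 every DOX value was above every PBS value.

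The other two of the 5 lay lower in DOX. At Thra the region over the left end of the gene (chr11:98740038-98743498) lay at 89.3, 91.2 and 89.9 in PBS and 87.7, 86.2 and 86.6 in DOX, a difference of -3.31 ± 0.96 (SE, limma adjusted p = 0.187). At Rxra a region 8795 bp outside the gene (chr2:27771862-27772437) lay at 71.0, 71.2 and 72.8 in PBS and 59.6, 63.5 and 65.8 in DOX, a difference of -8.70 ± 2.66 (SE, limma adjusted p = 0.209). The groups did not overlap at either.

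Among the 20 regions with an unadjusted p under 0.05, 4 genes had 3 each: Rarb (of 16 shared regions, all 3 lower in DOX), Ppara (of 13, all higher), Rora (of 34, all higher) and Rxra (of 18, 1 higher and 2 lower). The 4 genes were singled out after their values were seen. Of all shared regions 13.4% had such a p (8.17% higher and 5.19% lower in DOX), and 9.62% of those of members. Inside Rarb, chr14:16841048-16841261 lay at 50.1, 50.3 and 57.1 in PBS and 37.0, 22.8 and 41.5 in DOX, and chr14:16762896-16763122 at 19.4, 27.4 and 40.8 and at 5.01, 3.65 and 14.3. At Ppara, chr15:85683924-85684711, which is next to the region listed in DOX only and 50528 bp outside the gene, lay at 29.4, 12.8 and 17.2 in PBS and 39.9, 43.8 and 39.1 in DOX. In the same stretch, chr15:85676911-85680446 lay at 62.0, 60.0 and 40.8 in PBS and 67.1, 64.3 and 65.7 in DOX. The groups did not overlap at any of the 4 regions given, and the limma adjusted p was 0.217 to 0.334. These regions are given to Ppara by distance alone, and which gene they act on is not known from these data.

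Genes that work with the receptors were counted from 3 lists. Of 22 coactivators and corepressors, such as Ncoa2, Ncor1 and Ep300, 15 were tested for peaks and 0 called (median log2 difference -0.03 against 0.00 over all genes), and 17 of 89 shared regions had an unadjusted p under 0.05 (19.1%, against 13.4% of all regions). Of 26 genes that make or break down ligands, such as the retinoic acid enzymes Aldh1a1 and Cyp26b1, 15 were tested and 0 called (median 0.11), with 13 of 60 shared regions at an unadjusted p under 0.05 (21.7%). Of 27 target genes, 24 were tested (median 0.00) and 1 called, Nfil3, a clock-controlled repressor, with 10 peaks in all 3 PBS libraries and 9 in all 3 DOX libraries (log2 difference -0.14, limma adjusted p = 4.75e-08). That call rests on no spread within either group. Of its list, 18 of 164 regions (10.98%) had an unadjusted p under 0.05. limma called 0 regions in any of the 3 lists.

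Regions in 1 group only were few in these lists: regions that only the DOX libraries held were 2 of 110 at the ligand genes (1.82%), 4 of 263 at the targets (1.52%) and 0 of 150 at the coregulators, against 0.792% of all regions. Those that only the PBS libraries held were 2 at the ligand genes (1.82%) and 0 at the others, against 0.303%. No test compares these shares. Hsd11b1, which makes active glucocorticoid, and Dio3, which inactivates thyroid hormone, each had a DOX region, as did the targets Cidec, Xbp1, Tsc22d3 and Abca1. Crabp1, which binds retinoic acid in the cytoplasm, and Aldh1a2, which makes it, each had a PBS region. Only the region of Tsc22d3, the glucocorticoid-induced leucine zipper gene (chrX:140567860-140568126, inside the gene), was in no deposited list of the other group. It had 23, 23 and 32 fragments in DOX, 13.4, 13.8 and 14.4 times the background and close to the weakest kept peak of 11.6, 12.6 and 12.6 times.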

How the data were processed

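Mouse bone marrow MSPCs were assayed by ATAC-seq in 3 PBS and 3 DOX libraries, grouped by the sample titles. The members and gene lists were chosen with earlier results of these data known, and the result of 1 list is not reported here. The authors deposited 1 peak list per library on mm10, and the submitters' processing notes name MACS2 2.2.7.1, Bowtie2 2.4.5 and Trim Galore 0.6.6 without saying what each did. No source used here states read filters or a Tn5 shift. Per deposited peak there is a −log10 p, a −log10 q, a fold enrichment (the ratio of summit pileup plus 1 to background plus 1) and a score (10 times the −log10 q for at least 99.7% of the peaks). None is scaled between libraries.

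Background and pileup were solved from the fold and the −log10 p under a Poisson model, with 2000 peaks per library used for the background. With the peaks of highest −log10 p left out, 100% of the peaks gave whole pileups to within 0.05. Chromosomes 1 to 19 and X were used. The 65462 peaks of highest −log10 p were kept per library, and 90.9% to 91.5% went to a gene within 100 kb. A summit inside several spans went to the gene with the nearest end. Peaks overlapping by at least 1 bp were merged into 78613 union regions. Gene spans, starts and sequences came from RefSeq tables of GRCm38.p6, without exons. limma 3.58.1 (trend and robust moderation, Benjamini-Hochberg) was fitted across all genes or all shared regions in R 4.3.3 and tested on simulated data. Every member was accounted for. A value in every library was required for members called, with a region in 1 group only, among the 5 densest or the 5 of largest fold, and for Ncoa1. Alternatives were leaving out each library, other list lengths and thresholds, union regions, pseudocount 1, filters, limma settings, a replicate block, 20 kb, other windows and, chosen after seeing the data, centred ranks.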

Additional observations from a re-analysis of the deposited data

How the results depend on the processing

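Background differed between the groups, so list length could matter. Of 12 named gene and region values under 168 alternative settings, 162 kept direction and side of the threshold. At a −log10 q of at least 10, which moved the median of all genes by 0.28, the log2 differences reversed to 0.49 for Esrrg, 0.46 for Ncoa1 and 0.00 (0.0031) for Rara. With lists of 32731 peaks Thrb gave -0.12, and Nr5a2 ranged from -0.039 (without PBS replicate 3) to 0.60 when 1 library was left out. Esrrg passed without DOX replicate 1 (-0.21). The cause was not tested.

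The 96 genes called overall became 2 with all deposited peaks, 205 with no filter on the mean and 39 with the replicate block, and 170 to 282 when 1 library was left out. The 0 members called became 0 to 1 when 1 library was left out (Esrrg without DOX replicate 1, Rxra without PBS replicate 2) and 1 (Rxra) with lists of 32731. The replicate block left members at 0. The percentiles of shared regions were also taken as differences from the mean of their group. Between same-numbered libraries these differences had Pearson correlations of 0.13, -0.12 and 0.05, and between unlike-numbered ones of -0.20 to 0.16. These few values cannot tell whether the numbers pair the libraries. Of all shared regions 0 were called, and 0 to 14 with 1 library left out. Member regions stayed at 0 throughout.

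Member regions in DOX only numbered 2, with 2 to 7 when 1 library was left out (7 without PBS replicate 2, 6 without DOX replicate 2, 4 without DOX replicate 3), 0 in lists of 32731, 12 with all deposited peaks, 12 at a −log10 q of at least 10 and 5 where a region had to be covered to at least 50%. Those in PBS only numbered 1, with 1 to 3 when 1 library was left out and 0 at a −log10 q of at least 10. The Ncoa1 region was kept whichever library was left out, but not with lists of 32731 or all deposited peaks, where the 1 region was of Rarb or Rora. Members with a gene-end peak in all libraries numbered 24 to 30.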
